A study of Mus musculus with 10 samples.

Results

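The transcripts of 37 nuclear receptor genes were followed in the liver of Pml wt and Pml KO mice, in fed animals and in animals left without food for 6 h. The genes were taken by symbol from the platform annotation of the arrays and not by a cut on their values. The list was, however, chosen with earlier results of these data known. The brightest probe set stood for a gene that had more than 1. Of the 37 genes, 36 had a probe set annotated to that gene alone, among 22180 genes so annotated on the array, and 32 entered the tests, among 13942 genes tested. Nr1h2, the second liver X receptor, had no such probe set and was not analysed here. The samples were livers of female BALB/cByJ mice aged 3 months, hybridised to 10 Affymetrix Mouse Gene 2.1 ST arrays: 2 arrays from wild type and 2 from knockout mice with free access to food, and 3 from each genotype after food removal. Pml encodes the scaffold protein of PML nuclear bodies, and the study asked how liver expression depends on it before and after a brief period without food. The knockout allele, the time of day of collection and whether each array is a separate animal are not stated in the labels. P-values therefore cover the variation among these samples only, which may be technical in part. The note on food removal stands with the fed samples too, and feeding was taken from the sample titles.

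Nuclear receptors are transcription factors that bind short DNA elements and, in most cases, a small lipophilic ligand, whose binding exchanges corepressors for coactivators. In liver they tie the expression of metabolic enzymes to fatty acids, sterols, bile acids, steroid and thyroid hormones and foreign compounds, and many of them act as heterodimers with a retinoid X receptor. Much of their regulation lies in ligand and cofactor binding, which a transcript level does not show.

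Values are log2 of the normalized intensity deposited for each probe set, and a difference of 1 on this scale is a factor of 2 in intensity. Array medians were nearly level, between 5.44 and 5.57. Pml, the targeted gene, read 7.50 to 8.37 on the 5 wild type arrays and 6.05 to 6.91 on the 5 knockout arrays, with no overlap; whether its probes lie in the deleted part is not known. The fasted knockout arrays were not alike. The clock gene Arntl read 4.60 and 4.53 on arrays 1 and 2 and 8.87 on array 3, against 9.04 to 9.29 in fasted wild type, and the clock output gene Dbp read 10.05, 9.80 and 6.00 on those 3 arrays, against 6.07 to 6.64. Results that use the fasted knockout group were therefore also computed without arrays 1 and 2. That fit leaves 1 fasted knockout array. No call on whether food removal acted differently in the 2 genotypes was kept in it, for receptors or other genes. On the fed arrays Arntl read 7.50 and 7.10 in wild type and 5.72 and 6.02 in knockout. Dbp read 9.50 and 9.58 in fed wild type and 9.88 and 10.02 in fed knockout. Fed and fasted wild type liver thus differed in both clock genes. The genotypes differed in Arntl too, in the fed state and on fasted knockout arrays 1 and 2. With the time of day not stated, neither food removal nor genotype can be told apart from time of collection. The part of each was not tested, and this limit holds for all comparisons below. Hepatocyte markers were bright on all arrays, 6 of 6 above the array median with summed intensities of 33771 to 37014, and so were 8 of 8 markers each of Kupffer, sinusoidal endothelial and stellate cells. In such bulk tissue, fewer cells of a type and less RNA per cell cannot be told apart. Of the markers of cholangiocytes, T and NK cells and adipocytes 1 each, and of pancreas 0, lay above the median on all arrays. Cftr, Ncr1, Klrb1c, Lep, Retn, Cel and Ins2 lay above it on no array. The other listed markers of these cells with a probe set lay above it on some or all arrays.

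Most of the receptors gave a clear signal. Of the 36 measured, 28 lay above the array median on all 10 arrays, 5 on some arrays and 3 on none. The 5 were Rarg (7 of 10 arrays), Nr4a1 (7), Nr4a2 (6), Nr2f1 (3) and Hnf4g (1). Those never above the median were Vdr, the vitamin D receptor, at 3.65 to 4.41, Rorb, an orphan receptor known from retina and brain, at 4.37 to 5.36, and Nr4a3 at 4.04 to 4.84. These 3 and Hnf4g, at 4.50 to 5.58, were too dim to be tested. Nr3c2 alone had a second probe set, at 4.46 to 4.97 and above the median on 0 arrays, which was not used.

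**Figure D1:**
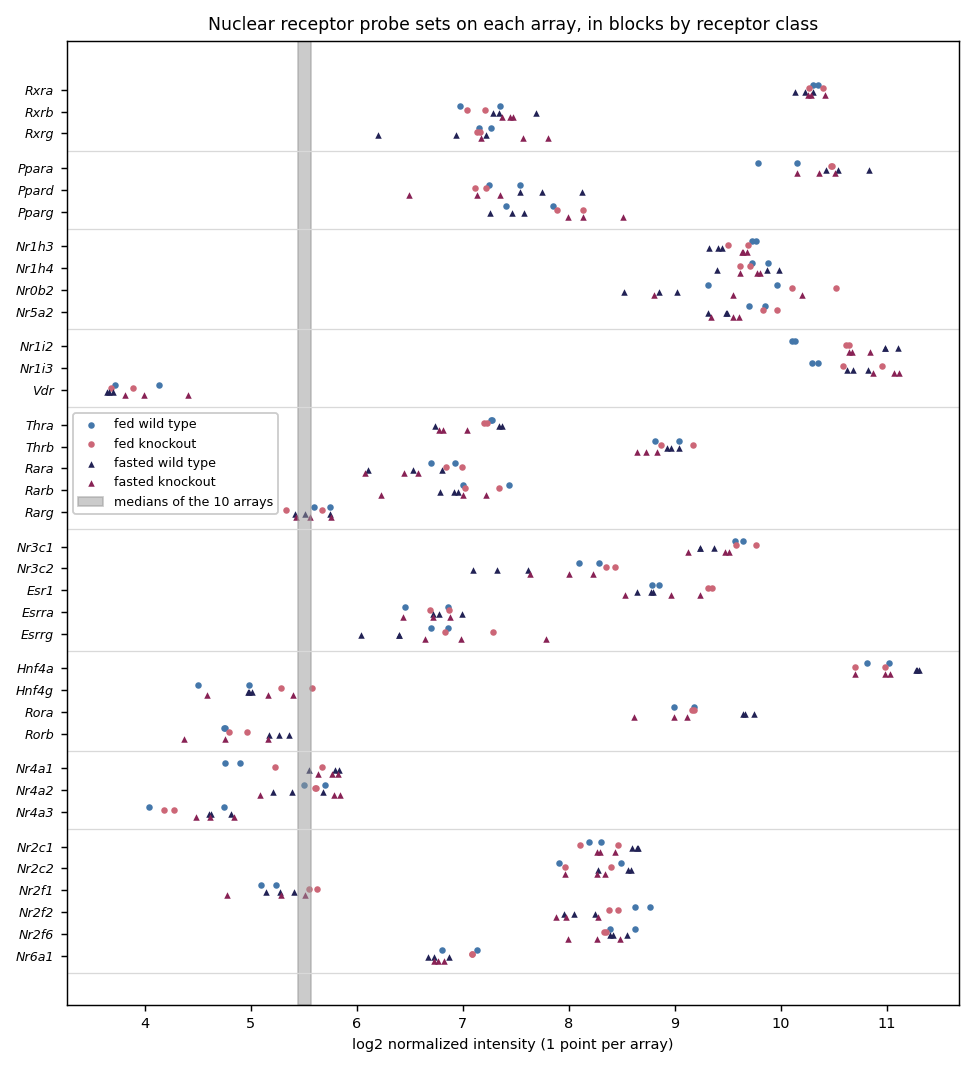
Log2 normalized intensity of each nuclear receptor probe set (rows, in blocks by receptor class) on each of the 10 arrays, circles for fed and triangles for fasted, with the grey band spanning the array medians of 5.44 to 5.57. Vdr, Rorb and Nr4a3 lie to the left of the band on every array and most receptors to its right; brightness of different probe sets is not a scale on which genes can be ranked.

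Food removal was accompanied by changes in 7 of the 32 tested receptors in wild type liver. Nr1i2, Nr4a1, Ppara and Rora rose and Nr3c2, Nr2f2 and Nr1h3 fell, with log2 differences from -0.85 to 0.90. Nr4a1 passed the filter on dim probe sets only through the fasted arrays, on which it is brighter. The other 6 lay above the array median on all 10 arrays. Without a filter the calls were Nr1i2, Nr3c2, Rora, Nr4a1 and Nr2f2, so those of Ppara and Nr1h3 did depend on it. The 7 of 32, 21.9%, lay next to the 21.4% of all genes called in the same comparison at a Benjamini-Hochberg adjusted p under 0.05. The count is therefore no result about the receptors. In 17 of the 32, no fasted array overlapped a fed one, beside 52.7% of all genes, and the median difference was -0.09, against -0.02 over all genes. The 7 calls, 4 higher and 3 lower, stand beside 8.23% and 13.2% of all genes called. The count was 3 without fed wild type array 1, beside 9.58% of all genes, and 3 without fed wild type array 2, beside 14%. The share of all genes called thus fell in these omissions too. In knockout liver 0 of 32 receptors were called, beside 1.68% of all genes (0.811% higher and 0.868% lower), and the fed and fasted arrays of 13 did not overlap, beside 36.8%. Of the 32, 7 had an unadjusted p under 0.05 in limma, and the lowest adjusted p was 0.121, for Nr5a2. With fasted knockout array 3 as the only fasted knockout sample, assumed to vary like the other groups, 1 receptor was called, Esr1, at -0.80 with an adjusted p of 0.0432.

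**Figure D2:**
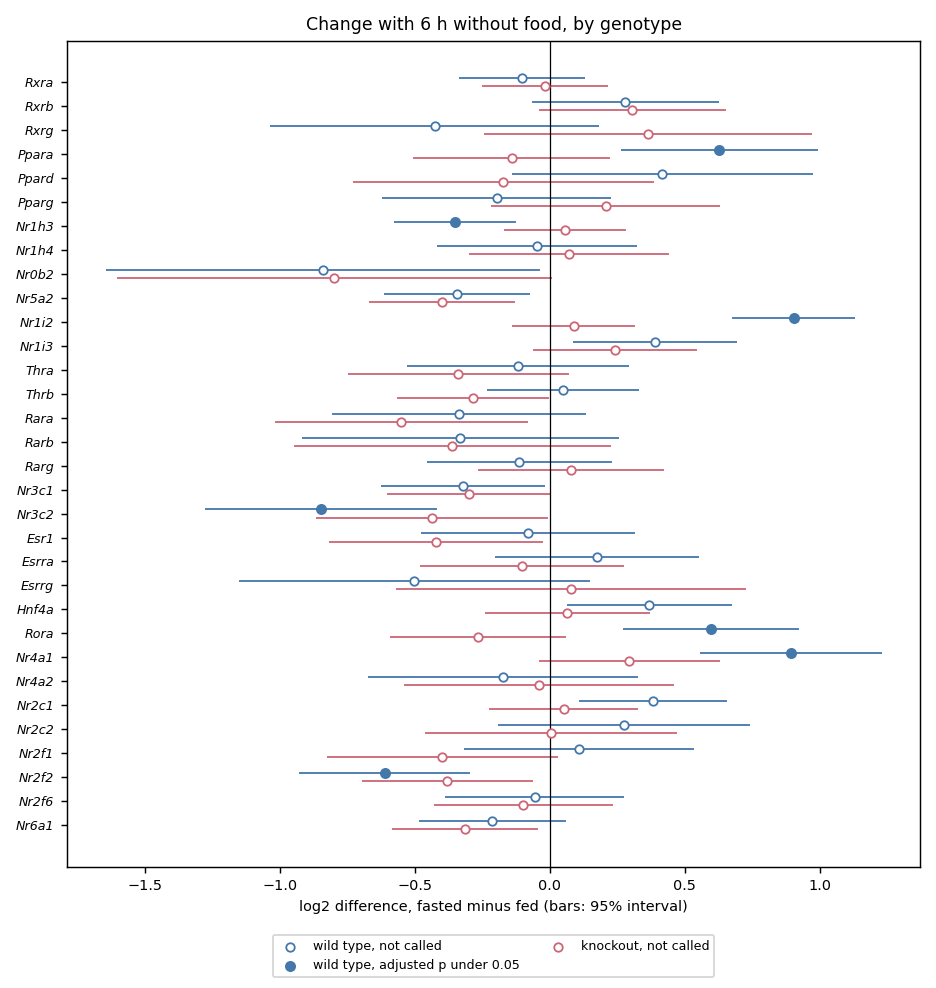
Log2 difference, fasted minus fed, of the 32 tested receptors in wild type (blue) and knockout liver (red), with 95% intervals from limma and filled points for an adjusted p under 0.05. The 7 filled points are all wild type, from Nr3c2 at -0.85 to Nr1i2 at 0.90, and the 2 intervals of many receptors overlap.

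Between the genotypes in the fed state, 0 of 32 receptors were called, beside 0.0861% of all genes (0.0574% higher and 0.0287% lower), and in 15 the arrays did not overlap, beside 39.9%. Of the 32, 5 had an unadjusted p under 0.05 in limma, and 1 receptor, Nr1i2, was called with trended and robust moderation. In the fasted state the arrays of the genotypes did not overlap in 11 of 32, beside 33% of all genes. Pparg and Nr3c2 were called higher in the knockout (6.68% of all genes were called higher) and Rora and Ppard lower (4.43% were called lower). The calls were 4 of 32, 12.5% beside 11.1% of all genes. When single arrays were left out the count ranged from 1, without fasted wild type array 1 or fasted knockout array 1, to 6. The share of all genes ranged from 3.16% to 10.8% in these omissions. The calls were not kept without fasted knockout arrays 1 and 2 together. That fit leaves 1 array in the group, so the loss is no result about the receptors. The test of whether food removal acted differently in the 2 genotypes called 1 receptor, Nr1i2, 3.12% beside 2.11% of all genes (0.789% with a lower and 1.32% with a higher response in knockout). It was called with fasted knockout array 2 or 3 left out and not in the other 8 omissions of 1 array. The comparisons share samples: the fasted wild type arrays enter fasting in wild type, the fasted genotype comparison and the test of the difference, so a call in more than 1 of them is not separate evidence.

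**Figure D3:**
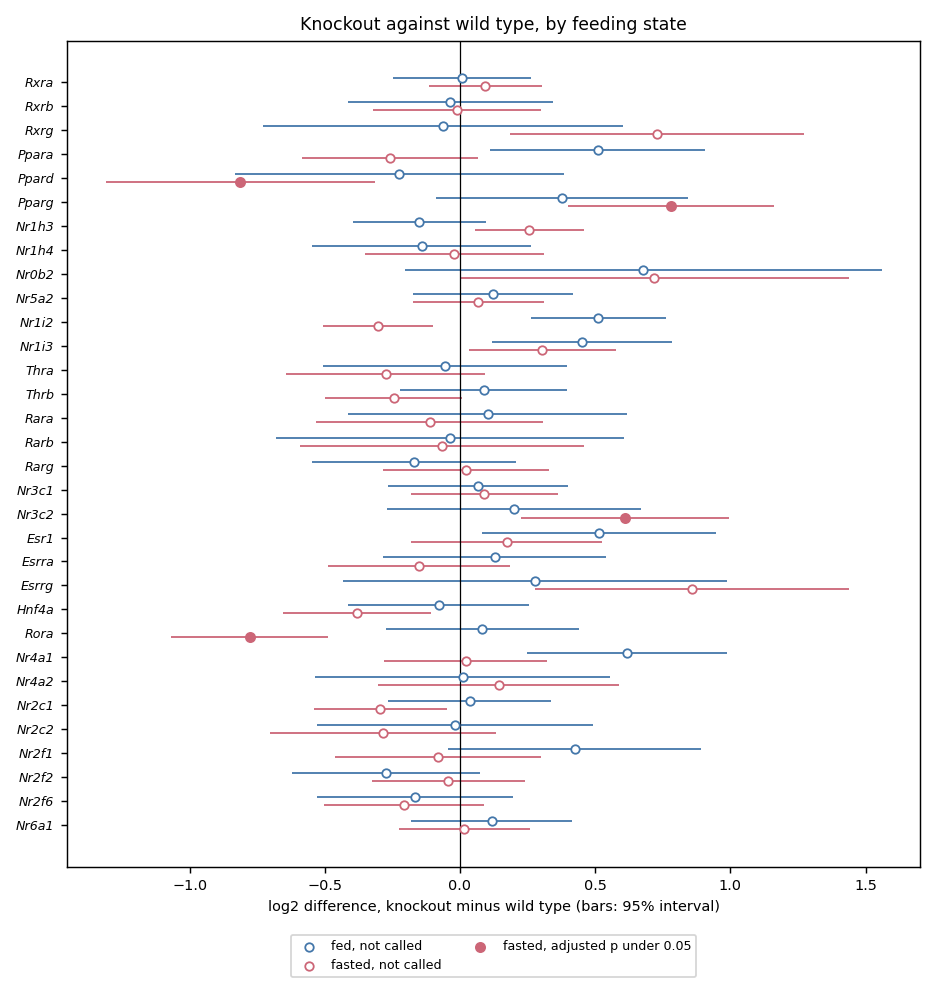
Log2 difference, knockout minus wild type, of the 32 tested receptors in the fed and in the fasted state, with 95% intervals from limma and filled points for an adjusted p under 0.05. The 4 filled points are all from the fasted state, Pparg at 0.78 and Nr3c2 at 0.61 to the right of 0 and Rora at -0.78 and Ppard at -0.81 to its left.

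The promoters of the 4 receptors that rose with food removal in wild type liver are printed below because these are the members that moved together, with the limit just given for Nr4a1. Each is the 250 bases before the transcription start in RefSeq (GRCm38.p6), given 5′ to 3′ on the strand of the gene, with matches to the searched motifs in capitals.
Nr1i2, chr16:38294825-38295074, minus strand: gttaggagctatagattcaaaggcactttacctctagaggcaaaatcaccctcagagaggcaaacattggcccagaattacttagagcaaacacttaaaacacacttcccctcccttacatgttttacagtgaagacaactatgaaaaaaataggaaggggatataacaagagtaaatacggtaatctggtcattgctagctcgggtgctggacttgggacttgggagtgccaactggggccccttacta
Ppara, chr15:85735526-85735775, plus strand: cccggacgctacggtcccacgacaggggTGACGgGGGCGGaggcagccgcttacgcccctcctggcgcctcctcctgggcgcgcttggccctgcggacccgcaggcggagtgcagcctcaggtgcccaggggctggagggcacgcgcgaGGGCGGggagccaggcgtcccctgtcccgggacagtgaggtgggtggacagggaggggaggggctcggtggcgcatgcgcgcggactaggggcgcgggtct
Rora, chr9:68653536-68653785, plus strand: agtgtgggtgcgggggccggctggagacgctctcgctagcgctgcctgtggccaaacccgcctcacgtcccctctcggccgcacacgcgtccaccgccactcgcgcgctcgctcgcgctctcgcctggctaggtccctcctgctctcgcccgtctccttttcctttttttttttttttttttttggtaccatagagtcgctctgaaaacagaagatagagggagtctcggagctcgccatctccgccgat
Nr4a1, chr15:101266596-101266845, plus strand: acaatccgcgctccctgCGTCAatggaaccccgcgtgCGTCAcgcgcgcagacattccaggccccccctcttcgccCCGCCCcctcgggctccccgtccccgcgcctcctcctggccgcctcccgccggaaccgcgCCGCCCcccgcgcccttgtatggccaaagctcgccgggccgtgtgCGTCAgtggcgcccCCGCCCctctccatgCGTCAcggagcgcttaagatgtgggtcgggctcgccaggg

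The 4 motifs were searched on both strands: AGGTCA, the element that many nuclear receptors read; CACGTG, the E-box of the clock factors; TGACG, the core of the cAMP response element; and GGGCGG, the GC box. No matches overlapped. The Nr4a1 window held 4 matches to TGACG, all on the other strand, and 3 to GGGCGG. The Ppara window held 1 match to TGACG and 2 to GGGCGG, and the windows of Nr1i2 and Rora held none of the 4 motifs. Among the other receptors, TGACG occurred in windows of Nr2c1, Nr2c2, Nr4a2, Nr4a3, Nr6a1, Rara, Rxrb and Thrb. Among 32851 windows of all genes, TGACG occurred in 17.8%, GGGCGG in 32.7%, AGGTCA in 14% and CACGTG in 6.02%. Among the 54 windows of the 34 receptors in the table the shares were 18.5%, 48.1%, 16.7% and 7.41%, and the receptor windows were richer in G and C, with a median of 60.4% against 52.4%. Hnf4g, Nr3c1 and Thra were missing from the table. A match is a run of letters and not a binding site.

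The retinoid X receptors are the shared partners of many of the others. Rxra, the main liver form, read 10.35 and 10.31 fed against 10.23, 10.14 and 10.30 fasted in wild type, and 10.40 and 10.27 fed against 10.28, 10.41 and 10.25 fasted in knockout. These 10 values lay within 0.28 of each other, and only wild type separated its fed from its fasted arrays, by a narrow gap. The difference with food removal in wild type was -0.10 (95% interval -0.34 to 0.13). Rxrb read 6.97 to 7.69 and Rxrg 6.20 to 7.80 over the 10 arrays, and neither was called in any comparison. Rxrg was 0.73 higher in fasted knockout than in fasted wild type liver (adjusted p = 0.0812), with overlapping arrays.

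The peroxisome proliferator-activated receptors respond to fatty acids and their derivatives. Ppara, which drives fatty acid oxidation and ketogenesis in the fasted liver, read 10.15 and 9.79 fed against 10.43, 10.54 and 10.83 fasted in wild type. In knockout it read 10.48 and 10.47 fed against 10.36, 10.51 and 10.15 fasted. The fed wild type arrays were the lowest, but for fasted knockout array 3, which lay beside the higher of them. Ppara rose by 0.63 with food removal in wild type (SE 0.16, adjusted p = 0.0226) and gave -0.14 in knockout (95% interval -0.51 to 0.22). The wild type call was lost without a filter, with a replicate block and with that block crossed in the fed knockout. The call in wild type ended without fed wild type array 2 (0.44, adjusted p = 0.154) and without fasted wild type array 3 (0.51, adjusted p = 0.0672). The difference between the genotypes' responses was -0.77 (adjusted p = 0.112), and fed knockout lay 0.51 above fed wild type (adjusted p = 0.431); neither was called.

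Ppard, the widely expressed form, read 7.24 and 7.54 fed against 8.13, 7.54 and 7.75 fasted in wild type, and 7.21 and 7.12 fed against 6.49, 7.14 and 7.35 fasted in knockout. Every fasted knockout array was below every fasted wild type array. The difference was -0.81 (SE 0.22, adjusted p = 0.0454), and the call was kept in 1 of 10 omissions of 1 array, that of fasted knockout array 3, with adjusted p values of 0.0552 to 0.131 in the other 9. Without fasted knockout arrays 1 and 2 together the difference was -0.45 (adjusted p = 0.342).

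Pparg, the adipogenic form, is also expressed by macrophages and rises in fatty liver. It read 7.85 and 7.41 fed against 7.46, 7.25 and 7.58 fasted in wild type, and 8.13 and 7.88 fed against 8.51, 7.99 and 8.14 fasted in knockout. The lowest knockout array, fed or fasted, was above the highest wild type array. In the fasted state Pparg was 0.78 higher in knockout (SE 0.17, adjusted p = 0.0218, 1.72-fold). In the fed state the difference was 0.38 (95% interval -0.09 to 0.84, adjusted p = 0.687), which was not called. The fasted call ended without fasted wild type array 1 (0.80, adjusted p = 0.0578), fasted wild type array 2 (0.69, adjusted p = 0.0645) or fasted knockout array 1 (0.63, adjusted p = 0.0765), and without fasted knockout arrays 1 and 2 together (0.70, adjusted p = 0.157). In the fasted state 4 of 8 Kupffer cell markers were called higher in knockout than in wild type liver, beside 6.68% of all genes. Their summed intensity was 3649 to 4172 against 3019 to 3200. In the fed state 0 of 8 were called, and the sums overlapped, at 3466 to 3748 in knockout and 3298 to 4029 in wild type. The adipocyte sums overlapped in the fasted state, at 351 to 520 in knockout and 417 to 511 in wild type, with Lep and Retn at or below the median on all arrays. The part of Kupffer cells in the result was not tested.

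**Figure D4:**
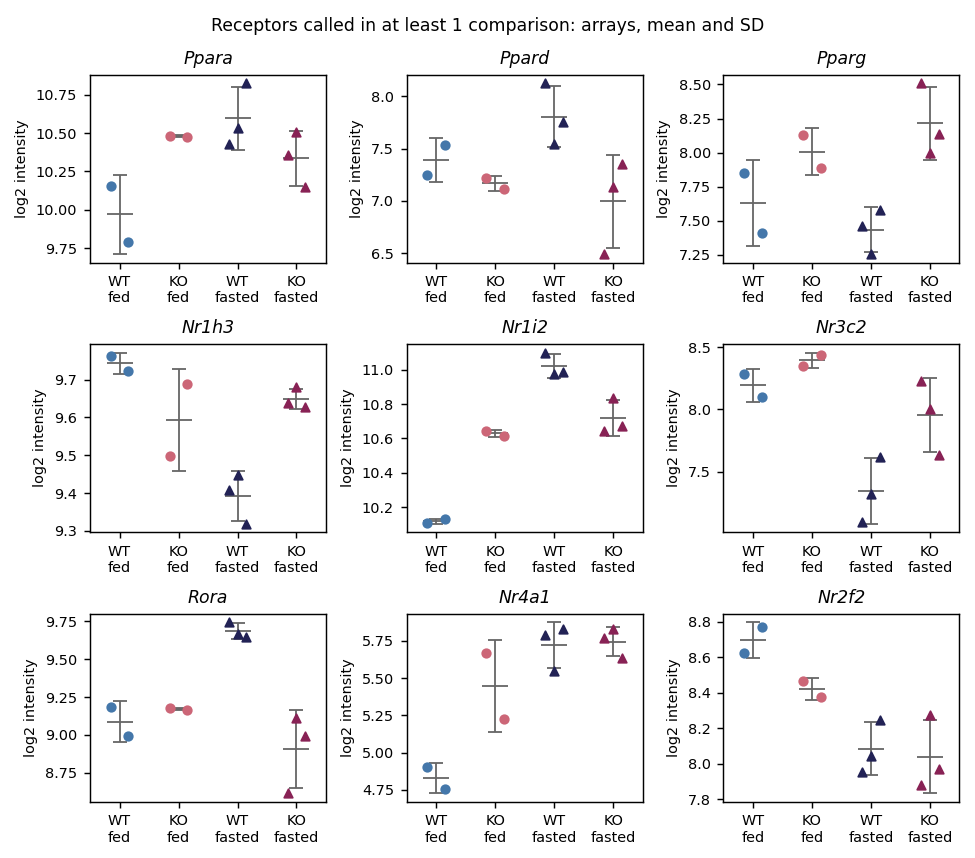
Log2 normalized intensity on each array of the 9 receptors called in at least 1 comparison, with the group mean and SD (2 fed and 3 fasted arrays per genotype); each panel has its own axis, which does not start at 0. Nr1i2 is lowest in fed wild type, at 10.11 and 10.13, and highest in fasted wild type, at 10.98 to 11.10, with all 5 knockout arrays in between.

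The sterol and bile acid receptors sense oxysterols and bile acids and set the rate of bile acid synthesis. Nr1h3, the liver X receptor that activates lipogenesis and cholesterol export, read 9.76 and 9.72 fed against 9.41, 9.45 and 9.32 fasted in wild type, and 9.50 and 9.69 fed against 9.64, 9.68 and 9.63 fasted in knockout. The 3 fasted wild type arrays were lower than all the others. It fell by 0.35 with food removal in wild type (SE 0.10, adjusted p = 0.0341), and the value in knockout was 0.06 (95% interval -0.17 to 0.28). The call ended with any single wild type array left out (adjusted p = 0.0590 to 0.161). In wild type 2 of 8 markers of Kupffer cells, which also express this receptor, were called lower with food removal, beside 13.2% of all genes. The sums were 3019 to 3200 fasted against 3298 to 4029 fed, and the part of these cells in the result was not tested.

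Nr1h4, the bile acid receptor FXR, read 9.88 and 9.72 fed against 9.98, 9.40 and 9.87 fasted in wild type, and 9.61 and 9.71 fed against 9.80, 9.62 and 9.77 fasted in knockout. All groups but the fed ones overlapped, and the largest of its 4 group differences was -0.14, between the genotypes in the fed state. Nr0b2, the FXR-induced corepressor SHP, read 9.31 and 9.96 fed against 8.85, 9.02 and 8.52 fasted in wild type, and 10.52 and 10.10 fed against 10.19, 9.55 and 8.80 fasted in knockout. Its spread within groups was the widest of all tested receptors in fed wild type and in fasted knockout, with an SD of 0.70 in the latter. The fasted wild type arrays lay below the fed ones, with a difference of -0.84 (adjusted p = 0.127), and the value in knockout was -0.80 (adjusted p = 0.263); neither passed the threshold. Fasted knockout array 3, on which Arntl and Dbp lay beside the fasted wild type values, was the only one of its group within the fasted wild type range of Nr0b2.

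Nr5a2, the receptor LRH-1 that maintains bile acid synthesis genes, read 9.85 and 9.70 fed against 9.49, 9.31 and 9.48 fasted in wild type, and 9.83 and 9.96 fed against 9.54, 9.61 and 9.34 fasted in knockout. In each genotype all fasted arrays were below all fed ones. The difference was -0.34 in wild type (95% interval -0.62 to -0.07, adjusted p = 0.0711) and -0.40 in knockout (95% interval -0.67 to -0.13, adjusted p = 0.121), and neither was called.

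The xenobiotic receptors induce drug-metabolizing enzymes and transporters. Nr1i2, the pregnane X receptor PXR, gave the smallest p of all receptors and the one call on the difference between genotypes. It read 10.11 and 10.13 fed against 11.10, 10.98 and 10.99 fasted in wild type, and 10.64 and 10.61 fed against 10.64, 10.84 and 10.67 fasted in knockout. The fed wild type arrays were lowest, the fasted wild type arrays highest, and the 5 knockout arrays lay between them, fed and fasted overlapping. With food removal it rose by 0.90 in wild type (SE 0.10, adjusted p = 0.00069, 1.87-fold), and this call was kept in all 21 alternative settings. In knockout the value was 0.09 (95% interval -0.14 to 0.32, adjusted p = 0.681). The responses differed by -0.81 (SE 0.14, adjusted p = 0.0333), a call kept in 9 of 20 settings and in 2 of 10 omissions of 1 array, those of fasted knockout array 2 or 3 (adjusted p = 0.0616 to 0.114 in the other 8). Knockout lay 0.51 above wild type in the fed state (95% interval 0.26 to 0.76, adjusted p = 0.199) and -0.30 from it in the fasted state (95% interval -0.51 to -0.10, adjusted p = 0.0604), and neither was called, although the arrays did not overlap in either state.

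Nr1i3, the constitutive androstane receptor CAR, read 10.35 and 10.29 fed against 10.82, 10.62 and 10.68 fasted in wild type, and 10.95 and 10.59 fed against 11.11, 11.06 and 10.86 fasted in knockout. The fed wild type arrays were the lowest and fasted knockout arrays 1 and 2 were the highest. All 3 fasted knockout arrays lay above all fasted wild type arrays, array 3 only just, while fed and fasted knockout overlapped. The differences were 0.39 with food removal in wild type (adjusted p = 0.0697), 0.24 in knockout (adjusted p = 0.366), 0.45 between the genotypes in the fed state (adjusted p = 0.391) and 0.31 in the fasted state (adjusted p = 0.131), and none was called. Vdr, the third of this class, was below the array median throughout.

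The thyroid hormone and retinoic acid receptors repress their targets until hormone or retinoid binds. Thrb, the main thyroid hormone receptor of liver, read 9.04 and 8.81 fed against 9.04, 8.96 and 8.93 fasted in wild type, and 8.87 and 9.17 fed against 8.73, 8.83 and 8.64 fasted in knockout. The fasted knockout arrays lay below those of the fed knockout and fasted wild type groups, with differences of -0.28 (adjusted p = 0.256) and -0.25 (adjusted p = 0.187), and neither was called. Thra read 6.73 to 7.37, Rara 6.08 to 6.99, Rarb 6.23 to 7.43 and Rarg 5.33 to 5.76. No member of this class was called in any of the 5 comparisons, and the largest difference among them was that of Rara with food removal in knockout, at -0.55 (95% interval -1.02 to -0.08, adjusted p = 0.197).

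Among the steroid receptors, Nr3c1 encodes the glucocorticoid receptor, which induces gluconeogenic and catabolic genes. It read 9.64 and 9.56 fed against 9.23, 9.37 and 9.23 fasted in wild type, and 9.57 and 9.77 fed against 9.47, 9.51 and 9.13 fasted in knockout. The fasted arrays of each genotype lay below its fed ones, with differences of -0.32 in wild type (adjusted p = 0.121) and -0.30 in knockout (adjusted p = 0.267), without a call.

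Nr3c2, the mineralocorticoid receptor, which also binds glucocorticoids, read 8.29 and 8.10 fed against 7.10, 7.32 and 7.62 fasted in wild type, and 8.35 and 8.44 fed against 8.23, 8.00 and 7.64 fasted in knockout. The fasted wild type arrays were the lowest, and fasted knockout array 3 lay just above the highest of them. Nr3c2 fell by 0.85 with food removal in wild type (SE 0.19, adjusted p = 0.0133); without fed wild type array 1 the value was -0.75 with an adjusted p of 0.0958. In knockout the value was -0.44 (95% interval -0.87 to -0.01, adjusted p = 0.253). In the fasted state it was 0.61 higher in knockout (SE 0.17, adjusted p = 0.0494), which was kept in 1 of 10 omissions of 1 array, that of fasted knockout array 3, and not in the other 9 (adjusted p = 0.0527 to 0.166). Without fasted knockout arrays 1 and 2 together it was 0.29 (adjusted p = 0.487).

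Esr1, the oestrogen receptor, read 8.85 and 8.78 fed against 8.77, 8.79 and 8.65 fasted in wild type, and 9.35 and 9.32 fed against 8.96, 9.24 and 8.53 fasted in knockout in these female mice. The fed knockout arrays were the highest; the difference from fed wild type was 0.51 (95% interval 0.08 to 0.95, adjusted p = 0.474) and was not called. Esrra, a regulator of mitochondrial genes, read 6.44 to 6.99. Esrrg, its relative, read 6.04 to 7.78 and was 0.86 higher in fasted knockout than in fasted wild type (95% interval 0.28 to 1.44, adjusted p = 0.0617), short of the threshold, with no overlap between the arrays.

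Hnf4a, which maintains hepatocyte identity, read 10.81 and 11.02 fed against 11.30, 11.27 and 11.28 fasted in wild type, and 10.98 and 10.70 fed against 10.70, 10.98 and 11.03 fasted in knockout. The 3 fasted wild type arrays were above the other 7. The difference was 0.37 with food removal in wild type (adjusted p = 0.0847) and -0.38 between fasted knockout and fasted wild type (95% interval -0.65 to -0.11, adjusted p = 0.0722), and neither was called.

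Rora, which activates Arntl and other clock and lipid genes through elements it shares with the repressor Nr1d1, read 9.18 and 8.99 fed against 9.74, 9.67 and 9.64 fasted in wild type, and 9.18 and 9.16 fed against 8.62, 9.11 and 8.99 fasted in knockout. The fasted wild type arrays stood above the other 7 and the fasted knockout arrays below or within the fed ranges. It rose by 0.60 with food removal in wild type (SE 0.15, adjusted p = 0.0179), a call that ended without fed wild type array 1 (0.69, adjusted p = 0.0522) or array 2 (0.50, adjusted p = 0.109). The wild type call was also lost with a replicate block. In the fasted state Rora was lower in knockout, with a difference of -0.78 (SE 0.13, adjusted p = 0.00978). That call was kept in all 10 omissions of 1 array, and with fasted knockout arrays 1 and 2 left out the value was -0.69 (adjusted p = 0.0780). Fasted knockout array 3, which read far above arrays 1 and 2 in Arntl, lay between them in Rora. The difference between the responses was -0.86 (SE 0.21, adjusted p = 0.0636) and was not called.

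The NR4A receptors are immediate early genes induced by cAMP and other signals, and they were dim. Nr4a1 read 4.90 and 4.76 fed against 5.79, 5.55 and 5.83 fasted in wild type, and 5.67 and 5.23 fed against 5.77, 5.83 and 5.64 fasted in knockout. It was brighter than the median on 0 of 2 fed wild type arrays, 1 of 2 fed knockout arrays and all 6 fasted arrays. The filter asks for 2 arrays, so Nr4a1 entered the tests only through the fasted groups, where it is brighter. It rose with food removal in wild type (0.89, SE 0.15, adjusted p = 0.00368 in limma), and this p-value is not independent of that entry. The call was kept in all 20 settings run, most of them with the same filter. The stricter filter left the gene out. Since the fed level is only a bound, the rise is best given as at least 1.18-fold, the fasted mean over the array medians of the fed group. In knockout the value was 0.29 (95% interval -0.04 to 0.63, adjusted p = 0.323).

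Nr4a2 read 5.70 and 5.50 fed against 5.39, 5.68 and 5.21 fasted in wild type, and 5.62 and 5.61 fed against 5.79, 5.84 and 5.09 fasted in knockout, with overlapping groups and no call. Nr4a3 read 4.04 and 4.75 fed against 4.62, 4.81 and 4.61 fasted in wild type, and 4.18 and 4.28 fed against 4.61, 4.84 and 4.48 fasted in knockout, below the median on every array.

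Of the other orphan receptors, Nr2f2, known as COUP-TFII and expressed in venous endothelium, mesenchyme and hepatocytes, read 8.62 and 8.77 fed against 7.96, 8.05 and 8.25 fasted in wild type, and 8.46 and 8.38 fed against 7.88, 8.27 and 7.97 fasted in knockout. All fasted arrays were below all fed arrays in both genotypes. It fell by 0.61 with food removal in wild type (SE 0.14, adjusted p = 0.0145), a call that ended without fed wild type array 1 (-0.68, adjusted p = 0.0520) or array 2 (-0.54, adjusted p = 0.0858). In knockout the value was -0.38 (95% interval -0.70 to -0.06, adjusted p = 0.190), and the responses differed by 0.23 (95% interval -0.22 to 0.68). Of the markers of other cells that express it, in wild type the endothelial sums were 6442 to 7035 fed and 6669 to 7401 fasted. The stellate sums were 7252 to 7358 fed and 7824 to 8436 fasted. Of the 8 endothelial genes 1 was called, higher, beside 8.23% of all genes, and of the 8 stellate genes 1, lower, beside 13.2%. The part of these cells in the result was not tested.

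Nr2c1, a repressor that competes for receptor elements, read 8.10 to 8.65 over the 10 arrays, and its difference of 0.38 with food removal in wild type came close to the threshold (95% interval 0.11 to 0.66, adjusted p = 0.0530). Nr2c2 read 7.90 to 8.59, Nr2f6 7.99 to 8.63, Nr6a1 6.67 to 7.13 and Nr2f1 4.78 to 5.63, and no comparison called any of them.

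The spread between arrays of a group was larger for the receptors than for genes at large in fasted knockout, with a median SD of 0.20 against 0.16 over all genes, and near that of all genes in the other groups (0.12 against 0.12 in fed wild type, 0.10 against 0.10 in fed knockout, 0.15 against 0.13 in fasted wild type).

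The rest of the family and the cofactors were taken from lists chosen with earlier results of these data known, so their counts describe and do not test. Of 12 further family members 6 were bright enough to test. The share called in fasted against fed wild type was 33.3% for these, 50% for corepressors and 16.7% for coactivators, beside 21.4% of all genes. In knockout it was 0%, 16.7% and 8.33%, beside 1.68%. With food removal in wild type Nr1d1, the clock repressor REV-ERB alpha, fell by 3.12 (SE 0.41, adjusted p = 0.00132), from 10.20 and 9.48 to 6.94, 6.51 and 6.72, and Nr1h5, a relative of FXR, fell by 0.40 (adjusted p = 0.0237), a call that ended without fed wild type array 1 (adjusted p = 0.0934) or 2 (adjusted p = 0.109) or fasted wild type array 1 (adjusted p = 0.0665). In the fasted state Nr1d1 was 1.48 higher in knockout (adjusted p = 0.0341), with 8.55, 8.86 and 7.21 on arrays 1 to 3, and the call was kept in 3 of 10 omissions of 1 array (adjusted p up to 0.126 in the other 7). Without fasted knockout arrays 1 and 2 together the difference was 0.49 (adjusted p = 0.40). The wild type count for this list, 2, was 1 to 3 over the omissions.

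Of 6 tested corepressors, 3 rose with food removal in wild type and 0 fell; 1 was called without fed wild type array 2 and up to 4 in the other omissions. Nrip1, which represses metabolic genes at several receptors, read 7.50 and 7.56 fed against 8.47, 8.47 and 8.41 fasted in wild type, and 7.24 and 7.35 fed against 7.25, 7.71 and 7.94 fasted in knockout. It rose by 0.92 in wild type (SE 0.17, adjusted p = 0.00586) and was lower in fasted knockout than in fasted wild type (-0.82, SE 0.15, adjusted p = 0.0136). Both calls were kept in all 10 omissions of 1 array; without fasted knockout arrays 1 and 2 together the latter was -0.51 (adjusted p = 0.107). Tbl1xr1 rose by 1.01 (adjusted p = 0.00817; 0.81 and adjusted p = 0.0614 without fed wild type array 2). In knockout 1 of 6 was called, Tbl1x, at -0.71 (adjusted p = 0.0473), and it was lost in all 10 omissions of 1 array.

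Of 12 tested coactivators, 2 rose in wild type, 1 to 2 over the omissions. Pprc1, a relative of PGC-1, rose by 0.86 in wild type (SE 0.15, adjusted p = 0.00400) and by 0.87 in knockout (SE 0.15, adjusted p = 0.0323, kept in 4 of 10 omissions of 1 array). Its arrays read 5.89 and 6.11, then 7.07, 6.80 and 6.72 in wild type, and 5.21 and 5.49, then 6.10, 6.37 and 6.19 in knockout. Med1, a Mediator subunit that receptors bind, rose by 0.33 (adjusted p = 0.0463), kept in 1 of 10 omissions. For Ppargc1b, a coactivator of oestrogen-related receptors and PPARs, the responses differed by -1.17 (SE 0.24, adjusted p = 0.0426), kept in 2 of 10 omissions. It read 8.10 and 7.94, then 8.56, 8.31 and 8.38 in wild type, and 8.51 and 8.68, then 7.73, 8.14 and 7.58 in knockout, so the fasted arrays were above the fed ones in wild type and below them in knockout.

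Known target genes of the receptors were listed by receptor. A target can answer to several regulators, and its level is no measure of one receptor. The share called in fasted against fed wild type was 100% for PPARA and 69.2% for glucocorticoid receptor targets. It was 40% for LXR and 36.4% for CAR and PXR targets, beside 21.4% of all genes. In knockout 1.68% of all genes were called, and 4.43% were lower in knockout in the fasted state. All 12 PPARA targets that could be tested, of 16 listed, rose with food removal in wild type, with a median of 1.61, and 11 of them lay above the median on all arrays; the count was 10 to 12 when single arrays were left out. In knockout the median was 0.50, 7 of 12 had an unadjusted p under 0.05 in limma, and 1 was called, higher. That count ranged from 0 to 2 over the omissions. In the fasted state 5 of 12 were lower in knockout and 0 higher. That count was 1 without fasted wild type array 3 and up to 6 in other omissions. The calls were not kept without fasted knockout arrays 1 and 2 together, which leaves 1 array in that group. The responses differed in 3 of 12, all smaller in knockout (0 to 5 in the omissions), beside 0.789% of all genes called with a lower response. In the fed state 11 of 12 read higher in knockout than in wild type, with a median of 0.35, and 0 were called. The fed arrays of 9 did not overlap between genotypes, beside 39.9% of all genes. The part of the fed level in the smaller responses was not tested. Pex11a, a peroxisome division factor, read 9.30 and 9.54 fed against 11.70, 11.64 and 11.71 fasted in wild type, and 10.28 and 9.80 fed against 10.68, 11.01 and 11.01 fasted in knockout. It rose by 2.26 in wild type (SE 0.16, adjusted p = 0.000218) and by 0.86 in knockout (SE 0.16, adjusted p = 0.0436, kept in 3 of 10 omissions), a difference of -1.40 (adjusted p = 0.0278, kept in 3 of 10). The fed knockout arrays of Pex11a lay above the fed wild type ones, and the fasted knockout arrays below the fasted wild type ones.

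**Figure D5:**
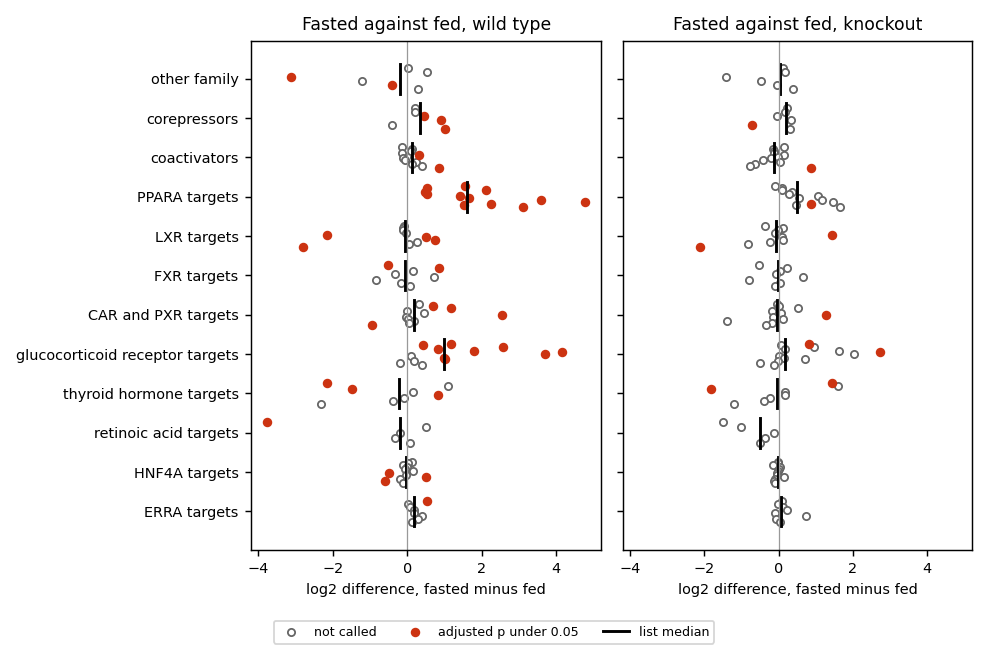
Log2 difference, fasted minus fed, of each tested gene (points) in 12 lists of further family members, cofactors and known targets, in wild type (left) and knockout liver (right), with black bars at list medians and filled points for an adjusted p under 0.05. In wild type all 12 PPARA targets are filled and to the right of 0, with a median of 1.61, and in knockout 1 is filled, with a median of 0.50.

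Of 13 glucocorticoid receptor targets, 9 rose and 0 fell with food removal in wild type, with a median of 0.98 (6 without fed wild type array 2, up to 9 in the other omissions). In knockout 2 rose, with a median of 0.17. Mt1, a metallothionein, rose by 4.15 in wild type (SE 0.32, adjusted p = 0.000218) and by 2.72 in knockout (SE 0.32, adjusted p = 0.0145); the knockout call ended without fed knockout array 2 (2.19, adjusted p = 0.0853) or fasted knockout array 3 (2.60, adjusted p = 0.0557). Fkbp5, a co-chaperone of the receptor, read 6.55 and 6.27, then 9.17, 9.02 and 8.79 in wild type, and 7.52 and 6.76, then 7.79, 8.18 and 8.28 in knockout. It rose by 2.59 in wild type (SE 0.23, adjusted p = 0.000318), and the responses differed by -1.64 (adjusted p = 0.0426, kept in 1 of 10 omissions).

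Of 11 CAR and PXR targets, 3 rose and 1 fell in wild type and 1 rose in knockout. Cyp2b10, the classic CAR target, whose probes may also read related Cyp2b genes, read 9.51 and 9.54 fed against 11.93, 12.12 and 12.17 fasted in wild type, and 10.44 and 10.39 fed against 11.67, 11.77 and 11.62 fasted in knockout, with no overlap between any of the 4 groups. It rose by 2.55 in wild type (SE 0.11, adjusted p = 9.95e-06) and by 1.27 in knockout (SE 0.11, adjusted p = 0.00660; 1.25 and adjusted p = 0.0736 without fed knockout array 2). The responses differed by -1.28 (SE 0.15, adjusted p = 0.0188 in limma). Among omissions of 1 array the call was lost without fed knockout array 1 (adjusted p = 0.0773) or 2 (adjusted p = 0.0721). It was also not kept without fasted knockout arrays 1 and 2 together, which leaves 1 array in that group. Cyp2b10 was 0.89 higher in knockout when fed (adjusted p = 0.0398, kept in 1 of 10 omissions) and -0.39 from wild type when fasted (adjusted p = 0.0337, kept in 4 of 10). Alas1, the first enzyme of haem synthesis, rose by 1.19 in wild type (adjusted p = 0.00225). Cyp3a11, a PXR target, gave 0.04 in wild type (adjusted p = 0.851).

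Of 10 LXR targets, 2 rose and 2 fell in wild type. Cyp7a1, the rate-limiting enzyme of bile acid synthesis, moved in opposite directions in the genotypes. It read 11.48 and 11.64 fed against 8.90, 9.81 and 9.53 fasted in wild type, and 10.50 and 9.75 fed against 11.41, 11.79 and 11.43 fasted in knockout. It fell by 2.15 in wild type (SE 0.28, adjusted p = 0.00124) and rose by 1.42 in knockout (SE 0.28, adjusted p = 0.0449, kept in 1 of 10 omissions). The responses differed by 3.57 (SE 0.40, adjusted p = 0.0170; 3.19 and adjusted p = 0.0720 without fed knockout array 2), and fasted knockout lay 2.13 above fasted wild type (SE 0.25, adjusted p = 0.00433, kept in all 10 omissions; 0.0766 without fasted knockout arrays 1 and 2 together). Srebf1, the lipogenic regulator, fell by 2.80 in wild type (adjusted p = 0.00166) and by 2.11 in knockout (adjusted p = 0.0415, kept in 3 of 10 omissions).

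In the remaining lists, the share called with food removal in wild type was 37.5% for thyroid hormone, 25% for FXR, 25% for HNF4A, 20% for retinoic acid and 12.5% for ERRA targets, beside 21.4% of all genes. Of 8 FXR targets 1 rose and 1 fell in wild type, the phospholipid exporter Abcb4 (0.84, adjusted p = 0.00440) and the bile salt exporter Abcb11 (-0.53, adjusted p = 0.0248; lost without fed wild type array 1, fasted wild type array 2 or 3, adjusted p = 0.0537 to 0.196), and 0 were called in knockout. Of 8 thyroid hormone targets 1 rose and 2 fell in wild type, among them Fasn, fatty acid synthase (-1.50, adjusted p = 0.00943; -1.11 and 0.0702 without fed wild type array 2). Of 5 retinoic acid targets 1 fell, Cyp26a1, which degrades retinoic acid (-3.76, SE 0.65, adjusted p = 0.00404 in limma). It read 7.34 and 7.36 fed against 3.08, 4.51 and 3.17 fasted in wild type. The fasted values lay under the array medians, so they are only a bound and the size of the fall is uncertain. Of 12 HNF4A targets 1 rose and 2 fell, and of 8 ERRA targets 1 rose, Acadm, a fatty acid oxidation enzyme (0.54, adjusted p = 0.0107; 0.52 and 0.0720 without fed wild type array 1). Over the omissions the HNF4A count was 0 (without fed wild type array 1) to 3, the thyroid count 1 (without fed wild type array 2) to 4, the FXR count 1 to 3 and the ERRA count 0 (without fed wild type array 1) to 1. In the fed state, the comparison of genotypes called 1 gene over all the target lists, Cyp2b10.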

How the data were processed

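Total RNA of liver stored in RNAlater was extracted with a Qiagen miRNeasy kit and hybridised to 1-colour arrays, per the labels. The values the authors deposited are normalized intensities, linear and not log, from RMA in Affymetrix Expression Console per the submitters' processing notes. Software versions and the genome build were not stated. Each array had 228 to 489 of its 41345 values under 0.1, so the exact summary step is uncertain; such values lie far below the filter.

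The log2 of the deposited intensity was taken without further normalization. GEO's platform annotation gave 1 gene symbol to 23521 probe sets, several to 1814 and none to 16010. Probe sets brighter than the array median on 2 or more arrays entered, with the brightest representing each gene. All 10 arrays entered 1 limma 3.58.1 model of 4 group means (R 4.3.3, residual df 6, prior df 3.63), with 5 contrasts and Benjamini-Hochberg adjustment over 13942 genes; calls had an adjusted p under 0.05. The code was tested on simulated data. The number of arrays, 2 or 3 per group, limits the precision.

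The members and all lists were chosen with earlier results of these data known. Values per array were given for called members, for 12 receptors of which liver is a main site and for the 3 NR4A genes, and of the other lists up to 2 called genes per list and comparison with the smallest p; Cyp3a11 was named after its value was seen. Alternatives were array centring, repeated quantile normalization, the mean of probe sets, no filter, a stricter filter (percentile 70), trended and robust moderation, an offset of 16 before the log2, a replicate block, the compared groups alone, and omission of single arrays or of fasted knockout arrays 1 and 2 together. Same-numbered arrays correlated at -0.173 to 0.105 in their deviations, 1 of 13 pairs over 0.1, so the numbers were not taken as pairs.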

Additional observations from a re-analysis of the deposited data

Results flagged for a closer look

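The response of Nr1i2, the pregnane X receptor gene, to food removal differed between the genotypes by -0.815 on the log2 scale (limma, adjusted p = 0.0333). Its 3 fasted wild type arrays were all above its 2 fed ones, and in knockout fed and fasted arrays overlapped. The call was kept in 9 of 20 alternative settings, and the value ranged from -0.87 to -0.78 when single arrays were left out.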

How the results depend on the processing

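Differences of single genes that were called kept their direction under every alternative run, while uncalled differences and list medians near 0 did not always: the median of LXR targets with food removal in wild type ranged from -0.14 to 0.06. Over single genes and lists, 5403 results stayed on their side of the threshold or near their value, 411 lost a call, 30 gained one and 301 counts or values moved. The 7 receptors called with food removal in wild type became 4 with the replicate block, beside 16.1% of all genes. They became 11 with trended and robust moderation, beside 23.4%, and 3 to 8 when single arrays were left out, beside 9.58% to 22.2%. The 0 called in knockout became 1 without fasted knockout arrays 1 and 2 together, and stayed at 0 in the single omissions. The 0 called between fed genotypes became 1 with trended and robust moderation. The 4 called between fasted genotypes became 2 with these groups alone (6.1% of all genes) and 1 without a filter (2.95%). They became 7 with the stricter filter (21%), 7 with trended and robust moderation (14.1%) and 2 with the replicate block (9.01%). In the single omissions they were 1 to 6. They were not kept without fasted knockout arrays 1 and 2 together, which leaves 1 array in that group. Array centring split the calls between fasted genotypes into 3 higher and 1 lower, and repeated quantile normalization into 1 higher and 2 lower. The 1 call on the difference between responses became 2 with an offset of 16, the stricter filter or trended and robust moderation. It became 0 without a filter or with the replicate block, and was 0 to 1 in the single omissions. It was not kept without fasted knockout arrays 1 and 2 together, which leaves 1 array in that group. A block with the fed knockout numbers crossed, added after the data were seen, called 5, 0, 0, 2 and 1 receptors in the 5 comparisons in the order above. Fewer samples or more genes tested enter some of these settings; otherwise the cause was not tested. Signals near or under the array median, such as those of the NR4A genes, set only bounds.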
